A study of Rattus norvegicus with 24 samples.

Results

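Ankrd1 (ENSRNOG00000018598), Des (ENSRNOG00000019810), Hspb1 (ENSRNOG00000023546) and Cryab (ENSRNOG00000010524) are 4 genes expressed in striated muscle. They encode a titin-binding protein, an intermediate filament protein and a pair of small heat-shock proteins. They were taken from the count table by their Ensembl gene identifiers, as 4 of the 31998 genes it holds. All 4 had enough reads to be tested, as did 16661 genes in all. The table pairs no identifier with a symbol, so the names are those given with the list of identifiers and could not be checked against the table.

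RNA was sequenced from the plantaris, a muscle of the calf, of female rats aged 14 months from generation 19 of a selection experiment. The HRT line was bred for a high gain in running capacity with endurance training, and the LRT line for a low gain. The 4 groups were HRT overload, HRT control, LRT overload and LRT control, with 6 libraries each. In the overload groups the synergist muscles, gastrocnemius and soleus, had been cut away on 1 side, and the plantaris was collected 14 days afterwards. The labels do not say whether a control muscle came from an untouched animal or from the other leg of an overloaded one, and they tie no library to an animal. The p-values below therefore measure the spread between these samples.

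Ankrd1 encodes the cardiac ankyrin repeat protein, which binds the elastic region of titin in the sarcomere and also enters the nucleus, and its transcript is known to be induced by stretch and overload of muscle. Desmin, the product of Des, is the intermediate filament protein of mature muscle and ties the Z-discs of neighbouring myofibrils to one another and to the sarcolemma and nuclei. Hspb1 and Cryab, whose product is alphaB-crystallin, encode small heat-shock proteins. These share an alpha-crystallin domain, hold unfolding proteins without using ATP, and bind desmin filaments and titin under strain.

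Library totals lay between 26997674 and 34254957 estimated counts, so that the rarest member, Ankrd1, was still covered by 114 to 8785 counts per library. The RNA integrity number (RIN) was higher after overload, at 8.97 ± 0.327 in HRT overload and 8.27 ± 0.216 in HRT control, and at 8.67 ± 0.258 in LRT overload and 8.28 ± 0.147 in LRT control (SD, n = 6). Levels are given in CPM, counts relative to the size of the library, after scaling by the trimmed mean of M values (TMM), which sets the bulk of genes to no change. Because the libraries are of whole muscle, fewer cells of a type and less RNA per cell cannot be told apart. Markers of other cell types could not be read, since no table used here pairs their names with these identifiers.

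Promoters are shown for the 2 of the 4 members that the RefSeq table of promoters (GRCr8) held, Hspb1 and Des. Each is given as the 250 bases before the annotated start. The heat-shock element is the sequence through which heat-shock factor is known to drive small heat-shock genes. Whether any of these motifs bears on the responses below was not tested. Capitals mark matches on either strand to the heat-shock element core (GAANNTTC or TTCNNGAA), the TEAD core (CATTCC, or GGAATG on the other strand) and the E-box (CANNTG). The Hspb1 promoter lies at chr12:26432302-26432551 on the minus strand, and the Des promoter at chr9:84299376-84299625 on the plus strand.
Hspb1: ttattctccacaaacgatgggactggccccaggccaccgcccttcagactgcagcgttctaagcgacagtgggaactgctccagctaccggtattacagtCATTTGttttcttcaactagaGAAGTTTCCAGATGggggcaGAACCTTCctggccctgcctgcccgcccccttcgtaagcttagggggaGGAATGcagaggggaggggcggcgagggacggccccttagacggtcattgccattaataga
Des: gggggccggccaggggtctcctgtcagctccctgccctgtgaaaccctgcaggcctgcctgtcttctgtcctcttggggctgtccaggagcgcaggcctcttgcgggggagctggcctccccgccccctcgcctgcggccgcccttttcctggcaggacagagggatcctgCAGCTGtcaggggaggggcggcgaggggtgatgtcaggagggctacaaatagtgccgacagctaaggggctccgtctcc
The Hspb1 sequence held 2 heat-shock element cores, GAAGTTTC at -129 to -122 and GAACCTTC at -109 to -102 from the start, with an E-box, CAGATG, directly after the one farther from the start. It also held a TEAD core, GGAATG at -61 to -56, and a further E-box, CATTTG at -150 to -145. The Des sequence held 1 E-box, CAGCTG at -79 to -74, and no match to the heat-shock element or TEAD cores. Neither sequence, including the 50 bases after the start, had a match to the CArG box or the MEF2 box. Among 33469 promoters of 300 bases, 15.9% held a heat-shock element core, 14.2% a TEAD core, 72.1% an E-box, 1.64% a CArG box and 3.29% a MEF2 box. These are matches of letters, and no factor was measured on them here.

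In the main fit, overload raised Ankrd1 and Hspb1 and lowered Des in both lines, while Cryab passed the test in neither. Of the 12 fits that each left out a library, 7 lost the Des call in HRT and 6 the Hspb1 call in LRT. In HRT 3 of the 4 members passed, 2 upward and 1 downward, where 63.2% of all genes tested passed (31.9% upward and 31.2% downward). In LRT it was again 3 of 4, 2 upward and 1 downward, against 57.2% of all genes (28.9% upward and 28.3% downward). The median log2 fold change of the members was 0.62 in HRT and 0.23 in LRT, beside -0.02 in each line over all genes. With this many genes changed, passing the test by itself says little about a member, and the sizes and directions that follow carry the description.

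**Figure D1:**
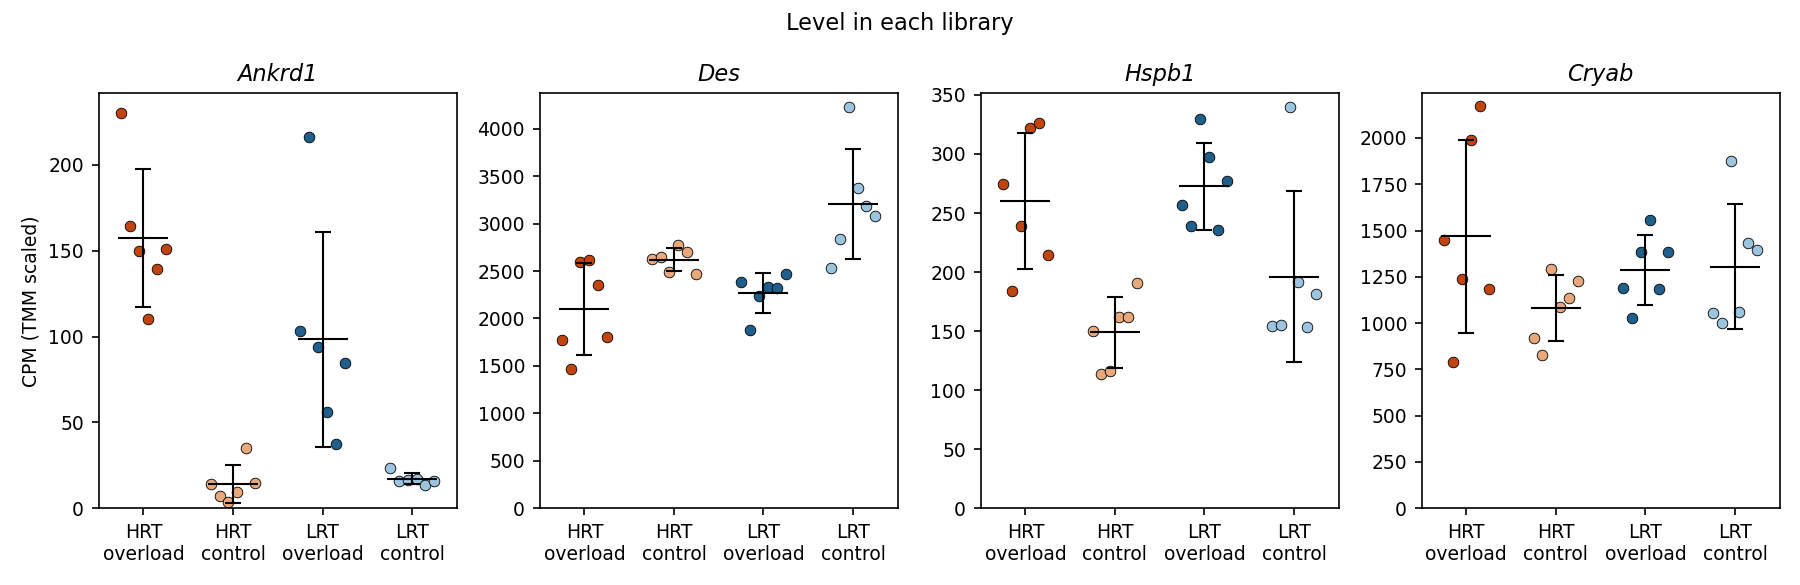
TMM-scaled CPM (vertical axis, from 0, a scale of its own for each gene) of the 4 genes in each of the 24 libraries; points are libraries, bars are the mean and SD of 6 libraries. Ankrd1 is the gene whose overloaded libraries, at 37.2 CPM or more, all lie above every control library, at 35.2 CPM or less.

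Ankrd1 had by far the largest response of the 4. Its level ran from 110.0 CPM at the lowest through a median of 150.5 to 230.3 CPM at the highest in HRT overload, against 3.79, 11.6 and 35.2 CPM in HRT control. In LRT overload the lowest, median and highest levels were 37.2, 89.3 and 216.3 CPM, against 13.6, 16.4 and 23.2 CPM in LRT control. In neither line did overloaded and control libraries overlap. Such a gap was seen for 38.4% of all genes in HRT, 21.4% higher and 17.1% lower, and for 32.8% in LRT, 17.3% higher and 15.5% lower. The overloaded libraries of the lines did overlap each other, since LRT overload replicate 2 lay above 5 of the 6 HRT overload libraries.

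Mean Ankrd1 levels were 157.5 ± 40.1 CPM in HRT overload and 14.1 ± 11.2 CPM in HRT control (SD, n = 6 each). The fold change was 11.2 (95% interval 5.96 to 21.0; log2 fold change 3.48 ± 0.438, SE; edgeR adjusted p = 6.68e-07). In LRT the means were 98.5 ± 62.8 CPM after overload and 17.1 ± 3.22 CPM in control. There the fold change was 5.77 (95% interval 3.15 to 10.6; log2 fold change 2.53 ± 0.421, SE; edgeR adjusted p = 3.24e-05). Few genes responded more strongly: 150 of 16661 genes, 0.9%, had a higher log2 fold change than Ankrd1 in HRT, and 299, or 1.79%, in LRT. Both calls held in all 13 other settings and in the 12 fits that each left out a library of the line compared. Without HRT control replicate 5, the control library highest in Ankrd1, the HRT log2 fold change was 4.002.

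**Figure D2:**
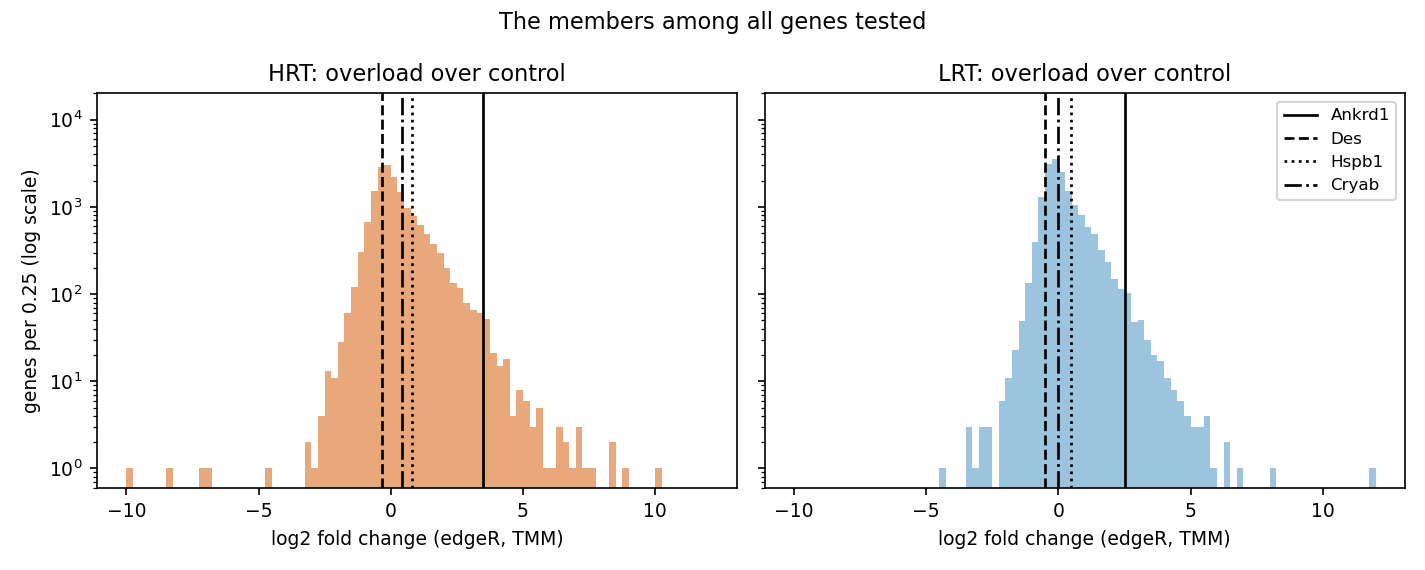
Histogram of the log2 fold change of overload over control (horizontal axis) for the 16661 genes tested, with the number of genes per bin on a log scale; vertical lines mark the 4 members. Ankrd1, at 3.48 in HRT and 2.53 in LRT, stands in the upper tail, while the other 3 lie between -0.50 and 0.80, in the body of the distribution.

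Des fell, by far less than Ankrd1 rose. Its lowest, median and highest levels were 1472, 2077 and 2621 CPM in HRT overload, against 2467, 2638 and 2776 CPM in HRT control. In LRT they were 1874, 2323 and 2471 CPM in overload, against 2537, 3133 and 4234 CPM in control. Overloaded and control libraries overlapped in HRT, where overload replicates 3 and 4 reached control levels, and did not overlap in LRT, as for 15.5% of all genes on the lower side. Scaled by library totals alone, the LRT libraries overlapped too.

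The mean of Des was 2103 ± 484 CPM in HRT overload and 2620 ± 120 CPM in HRT control (SD, n = 6 each), a fold change of 0.803 (log2 fold change -0.32 ± 0.132, SE; edgeR adjusted p = 0.0392). In LRT it was 2268 ± 208 CPM after overload and 3207 ± 581 CPM in control, a fold change of 0.707 (log2 fold change -0.50 ± 0.132, SE; edgeR adjusted p = 0.00243). The HRT call was lost, at adjusted p between 0.0557 and 0.122, when any of HRT overload replicates 1, 2 and 6 or HRT control replicates 1, 2, 4 and 5 was left out (log2 fold change -0.32 to -0.23 in those fits). As a share of all counts Des took 0.239% ± 0.0332 in HRT overload and 0.247% ± 0.0140 in HRT control. In LRT the share was 0.236% ± 0.0124 in overload and 0.282% ± 0.0433 in control. Scaled by library totals alone, the log2 fold change of Des was -0.05 in HRT (edgeR adjusted p = 0.682) and -0.26 in LRT (edgeR adjusted p = 0.0249).

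Hspb1 rose in both lines. Its lowest, median and highest levels were 183.8, 257.1 and 326.5 CPM in HRT overload, against 113.3, 155.9 and 191.1 CPM in HRT control. In LRT they were 235.4, 267.1 and 330.0 CPM in overload, against 153.1, 168.4 and 339.9 CPM in control. In each line 1 library closed the gap: HRT overload replicate 2, at 183.8 CPM, lay below the highest control, and LRT control replicate 3, at 339.9 CPM, lay above every overloaded library, while the other 5 LRT controls stayed at 191.9 CPM or less.

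Mean Hspb1 levels were 260.2 ± 58.0 CPM in HRT overload and 149.0 ± 29.9 CPM in HRT control (SD, n = 6 each). The fold change was 1.75 (95% interval 1.34 to 2.27; log2 fold change 0.80 ± 0.183, SE; edgeR adjusted p = 0.000538). In LRT the means were 272.7 ± 36.7 CPM after overload and 196.0 ± 72.4 CPM in control, and the fold change was 1.39 (95% interval 1.07 to 1.81; log2 fold change 0.48 ± 0.182, SE; edgeR adjusted p = 0.0288). Without LRT control replicate 3 the LRT log2 fold change was 0.70 (edgeR adjusted p = 0.00038). Conversely, the LRT call was lost, at adjusted p between 0.0536 and 0.0708, when LRT overload replicate 3 or 4 or LRT control replicate 1, 2, 5 or 6 was left out, and with RIN as a covariate (0.49 on the log2 scale; edgeR adjusted p = 0.0596). With RIN and the replicate number as a block together, the LRT log2 fold change was 0.69 (edgeR adjusted p = 0.0106).

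Cryab was the member for which no response passed the test. Its lowest, median and highest levels were 788.5, 1343 and 2171 CPM in HRT overload, against 830.1, 1112 and 1290 CPM in HRT control. In LRT they were 1026, 1285 and 1559 CPM in overload, against 1001, 1227 and 1878 CPM in control. HRT overload libraries spanned the whole HRT control range and beyond it on both sides, and the LRT overload libraries lay inside the range of their controls.

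Mean Cryab levels were 1470 ± 522 CPM in HRT overload and 1082 ± 178 CPM in HRT control (SD, n = 6 each), a fold change of 1.36 (95% interval 1.03 to 1.80; log2 fold change 0.44 ± 0.195, SE; edgeR adjusted p = 0.0512). It passed when any of HRT overload replicates 2, 3 and 6 or HRT control replicate 3 was left out (log2 fold change 0.49 to 0.57, adjusted p 0.00783 to 0.0421). It passed as well with the DESeq2 Wald test (log2 fold change 0.45, adjusted p = 0.0368), with a stricter filter (0.47, edgeR adjusted p = 0.0335) and scaled by library totals alone (0.71, edgeR adjusted p = 0.000699). A fit that holds RIN as a covariate gave 0.13 (edgeR adjusted p = 0.73). With RIN and the replicate number as a block together, the log2 fold change was 0.41 and did not pass (edgeR adjusted p = 0.242). In LRT the means were 1287 ± 190 CPM after overload and 1304 ± 337 CPM in control (log2 fold change -0.02, 95% interval -0.42 to 0.38; edgeR adjusted p = 0.943). In the RefSeq annotation of GRCr8 the spans of Cryab and Hspb2, another small heat-shock gene, overlap, as do those of Des and LOC102550477. The sources used here do not state whether strand was used in counting, so reads from the shared stretches may have been divided either way.

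How the libraries are scaled moves all 4 genes together. With library totals alone the median log2 fold change of all genes was 0.27 in HRT and 0.22 in LRT. Measured against that median, the HRT responses were 3.52 for Ankrd1, -0.32 for Des, 0.81 for Hspb1 and 0.44 for Cryab, beside 3.51, -0.29, 0.83 and 0.47 with TMM. In LRT they were 2.60 for Ankrd1, -0.48 for Des and 0.50 for Hspb1, beside 2.55, -0.48 and 0.50 with TMM, and Cryab lay on the median under both. The order of the members, Ankrd1 above Hspb1 above Cryab above Des, was thus the same under both scalings in both lines. RIN moved with overload, and with RIN in the model the log2 responses in HRT were 4.02 for Ankrd1, -0.58 for Des, 0.82 for Hspb1 and 0.13 for Cryab. In LRT they were 2.82, -0.64, 0.49 and -0.18. With the replicate number as a block beside RIN, they were 3.97, -0.52, 1.14 and 0.41 in HRT, and 2.70, -0.58, 0.69 and -0.01 in LRT.

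**Figure D3:**
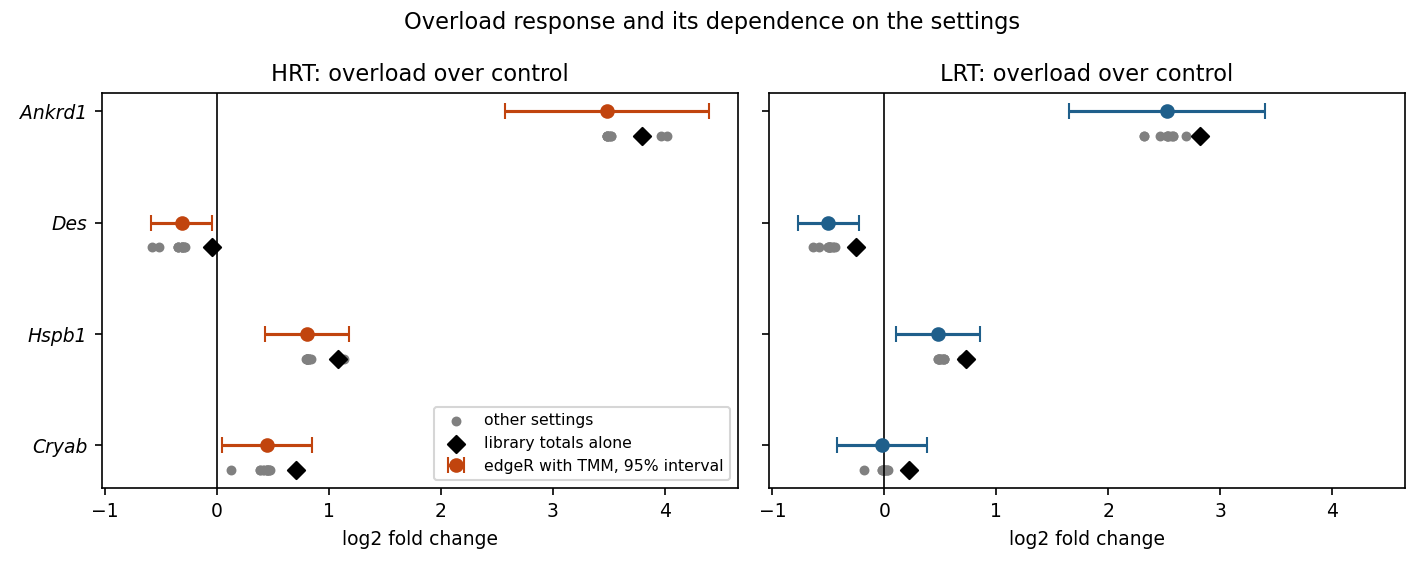
log2 fold change of overload over control (horizontal axis) for each gene, with HRT on the left and LRT on the right. Coloured points with bars are the edgeR estimates and their 95% intervals, grey points the other settings, and black diamonds the fits scaled by library totals alone, under which Des moves to -0.05 in HRT and Cryab to 0.71.

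Ratios between members within a library do not depend on library scaling at all. They were compared over libraries with exact two-sided permutation tests (smallest possible p 0.00216; Benjamini-Hochberg over 24 tests). The ratios were chosen after seeing the data, and a ratio of a gene that rose to one that fell is apt to separate the groups. Single genes showed no overlap in 38.4% of cases in HRT and 32.8% in LRT, and the share among all gene pairs was not counted. The p-values thus describe these ratios and add no separate support for the responses. A ratio of counts also reflects the lengths of the transcripts, so that its change between groups is the measurement and its level is not. The ratio of Hspb1 to Des was 0.126 ± 0.0210 in HRT overload and 0.0570 ± 0.0122 in HRT control (SD, n = 6 each), 2.22-fold higher with no overlap (exact permutation p = 0.00216, adjusted p = 0.00518). In LRT it was 0.121 ± 0.0170 in overload and 0.0600 ± 0.0109 in control, 2.02-fold higher, again with no overlap (exact permutation p = 0.00216, adjusted p = 0.00518). LRT control replicate 3, highest of its group in both genes, no longer reached the overloaded libraries in this ratio, whose highest control value was 0.0803 and lowest overload value 0.102.

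The ratio of Cryab to Des rose too. It was 0.695 ± 0.170 in HRT overload and 0.415 ± 0.0805 in HRT control, 1.66-fold higher (exact permutation p = 0.00866, adjusted p = 0.0189, n = 6 each). It was 0.568 ± 0.0656 in LRT overload and 0.405 ± 0.0579 in LRT control, 1.41-fold higher with no overlap (exact permutation p = 0.00216, adjusted p = 0.00518, n = 6 each). Relative to both small heat-shock transcripts the desmin transcript was thus lower after overload in each line, including Cryab, whose own level did not pass the edgeR test.

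The small heat-shock genes also shifted against each other. The ratio of Hspb1 to Cryab was 1.34-fold higher in HRT overload than in HRT control (exact permutation p = 0.0108, adjusted p = 0.0216, n = 6 each), and 1.44-fold higher in LRT overload than in LRT control, with no overlap (exact permutation p = 0.00216, adjusted p = 0.00518, n = 6 each). The HRT call was lost without HRT overload replicate 2 (adjusted p = 0.0519). The ratio of Ankrd1 to Des was 17.6-fold higher in HRT overload and 7.04-fold higher in LRT overload than in the controls of the line, both without overlap (exact permutation p = 0.00216, adjusted p = 0.00518, n = 6 each).

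**Figure D4:**
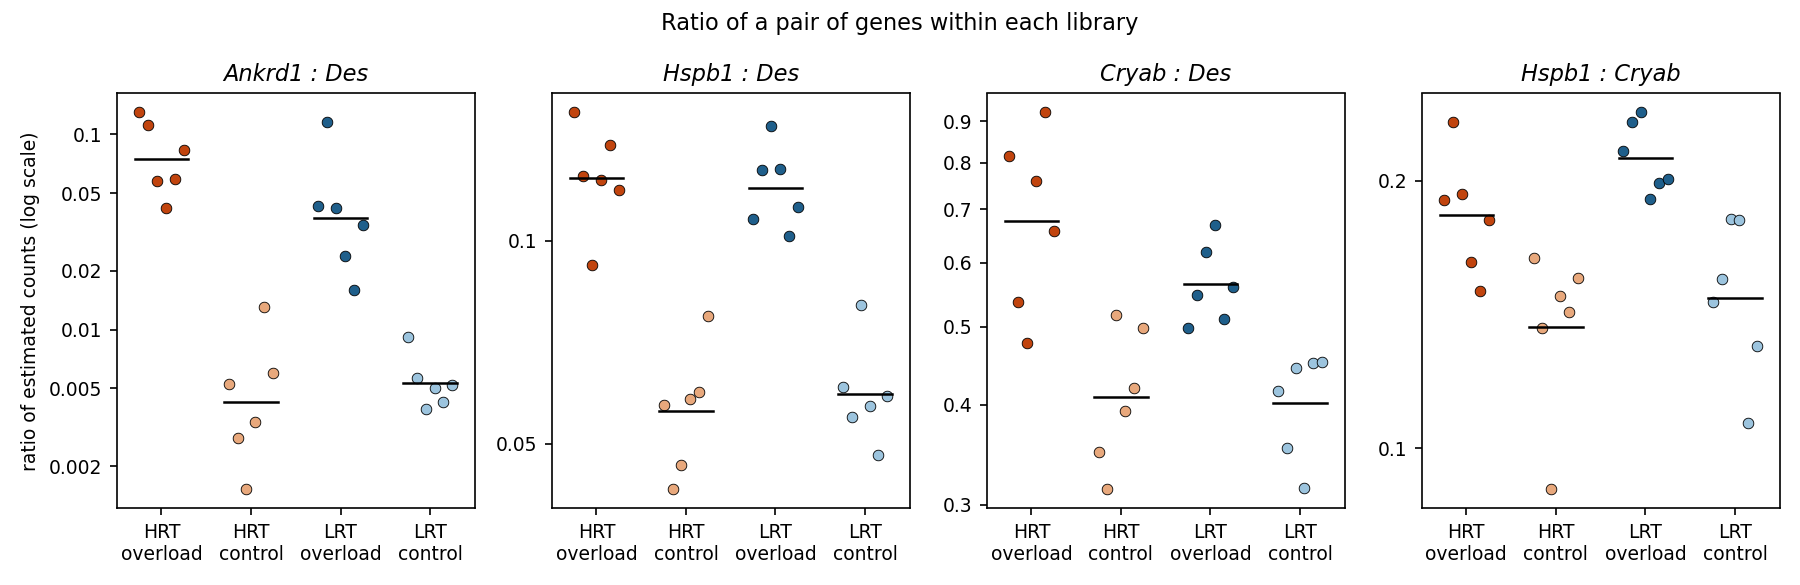
Ratio of estimated counts of a pair of genes within each library (vertical axis, log scale, its own range in each panel); points are libraries and lines are geometric means of 6 libraries. Hspb1 to Des separates overloaded from control libraries in both lines, with overloaded values from 0.0921 in HRT and 0.102 in LRT and control values up to 0.0775 in HRT and 0.0803 in LRT.

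The lines were then compared in the same state. In control muscle all 4 members had a higher mean in LRT than in HRT, and 0 of 4 passed, where 1.97% of all genes did (edgeR; 2 of the 4, Des and Hspb1, had an unadjusted p under 0.05, and DESeq2 and limma-voom called 0). The libraries of the lines overlapped for all 4, as they did for all but 2.65% of genes. Des was 1.22-fold higher in LRT control, at 3207 ± 581 CPM against 2620 ± 120 CPM in HRT control (SD, n = 6 each; 95% interval of the fold 1.01 to 1.48; edgeR adjusted p = 0.263). Hspb1 was 1.32-fold higher, with a 95% interval of 1.01 to 1.71 (edgeR adjusted p = 0.273). Without LRT control replicate 3 these log2 differences were 0.20 for Des and 0.17 for Hspb1, against 0.29 and 0.40 with it.

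In overloaded muscle 0 of 4 members passed, where 3.09% of all genes did (edgeR; none of the 4 had an unadjusted p under 0.05, and DESeq2 and limma-voom called 0). All 4 overlapped between the lines, where 1.56% of genes did not. Ankrd1 was lower in LRT, at 98.5 ± 62.8 CPM against 157.5 ± 40.1 CPM in HRT overload (SD, n = 6 each). The fold was 0.6254, with a 95% interval of 0.355 to 1.10 (edgeR adjusted p = 0.319). The exact permutation test of log2 CPM gave p = 0.0433 for this pair, and 0.0799 after adjustment over 24 tests of pairs of groups. Without LRT overload replicate 2, the highest library of its group, the log2 difference was -1.07 in place of -0.68 and still did not pass (edgeR adjusted p = 0.0745). For Des the fold of LRT overload over HRT overload was 1.08 (95% interval 0.893 to 1.301), for Hspb1 it was 1.05 (0.808 to 1.36) and for Cryab 0.876 (0.663 to 1.16).

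The test of the difference between the responses asked whether the lines answered overload unequally. For each member the estimated LRT log2 fold change was the lower one, which for Des is a deeper fall (-0.50, against -0.32 in HRT). In this test 0 of 4 passed, where 0.048% of all genes did (edgeR; 0 of the 4 had an unadjusted p under 0.05, and DESeq2 and limma-voom called 0). The difference in log2 fold change, LRT minus HRT, was -0.96 for Ankrd1 (95% interval -2.14 to 0.22; edgeR adjusted p = 0.46) and -0.46 for Cryab (95% interval -1.03 to 0.11; edgeR adjusted p = 0.46). It was -0.33 for Hspb1 (95% interval -0.86 to 0.20; edgeR adjusted p = 0.584) and -0.18 for Des (95% interval -0.57 to 0.20; edgeR adjusted p = 0.69). Without LRT control replicate 3 it was -0.10 for Hspb1 and -0.09 for Des. For Ankrd1 the interval spans a fold change in LRT of 0.227 to 1.17 times that in HRT.

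Ranked by mean CPM, the groups took a different order for each gene, though not every step passed a test. For Ankrd1 the order was HRT overload, LRT overload, LRT control and HRT control. Its step from LRT overload to LRT control passed the exact permutation test (adjusted p = 0.00864, n = 6 each), and its controls did not differ beyond their spread (adjusted p = 0.289). For Des the order was LRT control, HRT control, LRT overload and HRT overload. Here LRT overload lay below HRT control (exact permutation, adjusted p = 0.0130), the controls differed by this test (adjusted p = 0.0415) though not by edgeR, and the overloaded groups did not differ beyond their spread (adjusted p = 0.488). With library totals alone the first of these steps had adjusted p = 0.253 and the second 0.115. The permutation test also missed the threshold for 2 responses that edgeR called, Des in HRT overload against HRT control and Hspb1 in LRT overload against LRT control (adjusted p = 0.0562 each, n = 6 each). For Hspb1 (LRT overload, HRT overload, LRT control, HRT control) and Cryab (HRT overload, LRT control, LRT overload, HRT control) no pair of neighbours passed, with permutation adjusted p from 0.145 to 0.991. The order of groups is thus not settled for these genes. In mean log2 CPM, the scale of the test, Cryab was at 10.3165 in LRT overload and 10.3109 in LRT control, the reverse of their order in CPM.

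The members varied among libraries in unlike ways. In HRT control, Ankrd1 differed 9.29-fold between the lowest and the highest library, and its SD of 1.08 on the log2 scale exceeded that of 98.7% of all genes. Des in the same 6 libraries differed 1.13-fold, with an SD of 0.07 that exceeded that of 8.82% of all genes. In LRT overload the SD of Ankrd1 was 0.86, and in HRT overload and LRT control it was 0.35 and 0.25. For Cryab the widest group was HRT overload, with an SD of 0.54 and a 2.75-fold range, while the median SD of all genes there was 0.25. These spreads are descriptions and were not tested.

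Within HRT overload, Hspb1 and Cryab ranked the 6 libraries in the same order. Pearson's r was 0.981 (exact permutation p = 0.00139, n = 6) and Spearman's rho was 1.00 (exact permutation p = 0.00278, the smallest it can give with 6 libraries). After adjustment over 24 pairs and groups p was 0.0334 for r and 0.0667 for rho, and without the 2 libraries farthest from the median of Hspb1 r was 0.964. Scaled by library totals alone r was 0.959, with adjusted p = 0.1. How many of all gene pairs reach such an r in HRT overload was not counted, so it is not shown to be particular to this pair. In the other groups r was 0.797 in LRT overload, 0.354 in HRT control and 0.751 in LRT control, with adjusted p from 0.378 to 0.675 (exact permutation, n = 6 each), and rho was 0.771, 0.371 and 0.314, with adjusted p from 0.528 to 0.796. No other pair passed adjustment in any group. The lowest unadjusted p among them was that of Des and Hspb1 in LRT control (r = 0.896, exact permutation p = 0.0236, adjusted p = 0.283; rho = 0.657, exact permutation p = 0.175, adjusted p = 0.528; n = 6), where r was 0.621 without the 2 libraries farthest from the median of Des.

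**Figure D5:**
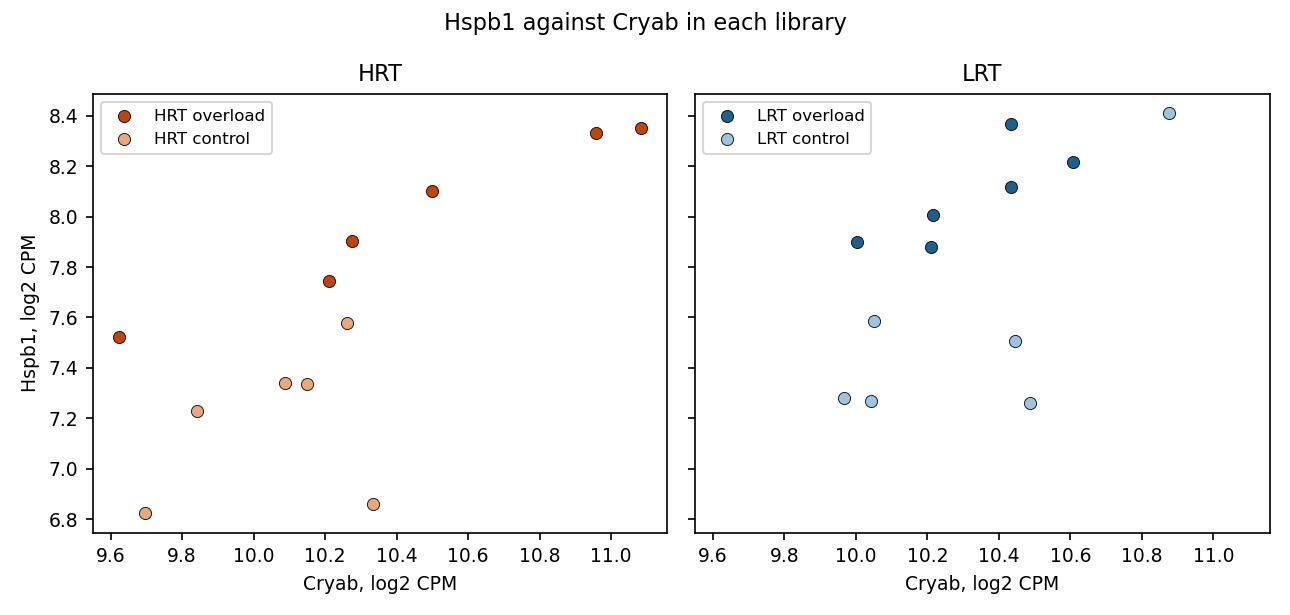
Hspb1 (vertical axis) against Cryab (horizontal axis) in log2 CPM, with HRT libraries on the left and LRT libraries on the right; each point is a library, darker for overload. The 6 HRT overload libraries climb along 1 line (r = 0.981), and over the Cryab levels that both share, overloaded libraries lie above controls.

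The 4 genes were also set beside every other gene by the root mean square difference of their log2 CPM over the 24 libraries, each gene taken relative to its own mean, among the 12228 others whose mean log2 CPM was 1 or more. The gene most like Ankrd1 was ENSRNOG00000010208, at 0.55, where the median gene lay at 1.76. Its log2 fold change was 3.62 in HRT and 2.58 in LRT. The gene most like Des was ENSRNOG00000005576, at 0.10 against a median of 0.36, with log2 fold changes of -0.38 in HRT and -0.48 in LRT. The gene most like Hspb1 was ENSRNOG00000007281, at 0.24 against a median of 0.56, with log2 fold changes of 0.76 in HRT and 0.70 in LRT. These genes were picked for their profiles over the same libraries, so their directions follow from the choice and are not tested. Among the members, Cryab stood in place 76 of the 12228 genes by likeness to Hspb1, at 0.34, Des in place 7255 and Ankrd1 in place 12122. By likeness to Cryab, Hspb1 stood in place 425, and the distance of 0.34 was close to the spread of Cryab about its own mean, 0.36.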

How the data were processed

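Per the labels' protocols, 24 plantaris samples of female rats were sequenced after preparation with a TruSeq RNA kit. The authors deposited estimated counts per Ensembl gene, not normalized. Salmon 0.9.1 is named in the submitters' processing notes, with Rnor_6.0 (rn6) as the genome. Which annotation and settings were used is not given in the sources used here. Dividing ambiguous reads can shift counts between similar or overlapping genes.

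Estimated counts were rounded. In R 4.3.3, edgeR 4.0.16 kept 16661 of 31998 genes (filterByExpr, minimum count 10, minimum total 15), scaled them by TMM and fitted 1 robust quasi-likelihood model of the 4 group means to all 24 libraries. P-values were adjusted by Benjamini-Hochberg over all genes tested, with a threshold of 0.05. SE was taken from the estimate and its F statistic, and 95% intervals from that SE. The log2 CPM carry a prior count of 2. Exact permutation tests enumerated every assignment of libraries to the 2 groups, or every pairing for correlations. The model was run on simulated counts with few genes changed, about as many up as down, in HRT overload only. That run did not test TMM scaling where most genes change. Groups came from the titles.

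The members, pathway lists and rules were chosen with earlier results of these data known. Of the identifiers, 0 matched the RefSeq gene table (GRCr8), so the pathway and cell type lists were not used. Named genes were the members and the nearest gene by likeness, at most 2 that rose and 2 that fell. Alternatives were DESeq2 1.42.0, limma-voom 3.58.1, other scalings, filters, covariates and left-out libraries. The within-library ratios and the fit of unrounded counts were chosen after seeing the data. Plots used matplotlib 3.10.9.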

Additional observations from a re-analysis of the deposited data

Results flagged for a closer look

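Of the 16 sets of 6 libraries (4 genes in 4 groups), 4 held a library whose gap to its nearest neighbour was unusually wide for the range of the group (Dixon's criterion at 95%, which chance meets in about 1 in 20 groups of normally distributed values). The criterion was applied to CPM and not to log2 CPM, the scale of the permutation tests between groups and of the correlations. A skew of CPM can widen such a gap, and the flags were not tested on the log2 scale. Ankrd1 was at 35.2 CPM in HRT control replicate 5, where the other 5 libraries lay at 14.9 CPM or less. Ankrd1 was at 216.3 CPM in LRT overload replicate 2, where the next library was at 103 CPM. Ankrd1 was at 23.2 CPM in LRT control replicate 1, where the next was at 17.0 CPM. Hspb1 was at 339.9 CPM in LRT control replicate 3, the library that was also highest of its group in Des (4234 CPM) and Cryab (1878 CPM).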

How the results depend on the processing

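The Ankrd1 rise in both lines, the Hspb1 rise in HRT and the Des fall in LRT kept their direction and call in all 13 other settings and in the 12 fits that each left out a library of the line compared. The Des fall in HRT was lost with library totals alone (-0.0484), with no filter (-0.299) and with only the groups compared (-0.2996), and ranged from -0.3914 to -0.233 with a library left out. The Cryab response in HRT passed with library totals alone (0.7091), the DESeq2 Wald test (0.4461) and the stricter filter (0.4746), and ranged from 0.2962 to 0.5704 with a library left out. The Hspb1 rise in LRT was lost with RIN as a covariate (0.4854), though not with RIN and the replicate block together (0.6901), and ranged from 0.4122 to 0.7036 with a library left out. The Cryab response in LRT took the opposite sign with library totals alone (0.2221), limma-voom (0.0079, or 0.0076 with group weights), no filter (0.0218), the stricter filter (0.0228) and only the groups compared (0.0373), and ranged from -0.0867 to 0.1127. It passed the test in none of these. The cause was not tested.

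Between overloaded LRT and HRT muscle, library totals alone gave -0.0166 for Des and -0.0646 for Hspb1, with the median of all genes at -0.1533; relative to it they were 0.1367 and 0.0887, beside 0.1169 and 0.0758 with TMM. Hspb1 ranged from -0.015 to 0.1431 with a library left out. For the permutation tests between groups, library totals alone gave log2 differences of -0.0059 (Des) and -0.0544 (Hspb1) for LRT overload minus HRT overload, which that shift of all genes also moves. The Des calls were lost for LRT overload minus HRT control (-0.0648), HRT overload minus LRT control (-0.239) and LRT control minus HRT control (0.1801). Calls were gained for Hspb1 in LRT overload (0.7717) and HRT overload (0.8261) minus LRT control, and for Cryab in LRT overload (0.4024) and HRT overload (0.6699) minus HRT control. The correlation of Hspb1 and Cryab in HRT overload lost its call (r = 0.9595). Others turned sign, none past adjustment: Des and Hspb1 in HRT control (-0.0157) and LRT overload (-0.4472), and, in LRT overload, Ankrd1 and Hspb1 (0.3234) and Des and Cryab (-0.1114).

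With a library left out, the LRT minus HRT difference in log2 ratio crossed 0 for Hspb1 to Des in overloaded muscle (-0.134 to 0.0161). In control muscle it crossed 0 for Ankrd1 to Cryab (-0.0137 to 0.6661), Hspb1 to Des (-0.0058 to 0.1759), Cryab to Des (-0.1013 to 0.0449) and Hspb1 to Cryab (-0.0141 to 0.2007). Without LRT overload replicate 2, the overloaded lines differed in Ankrd1 to Des (-1.3213, adjusted p = 0.016) and Ankrd1 to Hspb1 (-1.2551, adjusted p = 0.016), and without HRT overload replicate 2 in Hspb1 to Cryab (0.2828, adjusted p = 0.0142; exact permutation), which none did with all libraries.

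The count of genes called was 8 for the difference between responses, and 140 with the DESeq2 Wald test, 2 with limma-voom or with RIN, 5 with no filter or without robust estimation, and 1 with DESeq2 size factors or group weights. Between control muscles it was 328, and 619 with DESeq2, 793 with group weights and 206 with no filter. Between overloaded muscles it was 514, and 2153 with library totals alone (225 higher and 1928 lower, against 266 and 248), 1093 with DESeq2, 785 with RIN, 307 with no filter, 158 with group weights and 115 with only the groups compared. With 1 library left out, these 3 counts spanned 1 to 25, 154 to 495 (highest with LRT control replicate 2 absent) and 171 to 1647 (highest with HRT overload replicate 3 absent), so the shares of genes called between the lines depend on single libraries.

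Replicate numbers did not pair the samples (correlation of deviations -0.1274 to 0.3672 over 36 same-numbered pairs; 7 of the 36 were best matches). With the replicate block the Cryab response in HRT passed (0.4163), 1 gene was called for the difference between responses, and 10570 in HRT and 9494 in LRT for overload. With the block and RIN together, the Hspb1 difference between overloaded lines was -0.0656, and 289 genes were called there.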
